A study of Homo sapiens with 11 samples.

Results

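The genes described are the ATF4 amino acid stress genes, a list of 39 symbols of the ATF4 pathway, serine and folate synthesis and amino acid transport. They were matched by symbol to Ensembl gene IDs among the 58037 genes of the count table, and all 39 were found. Total RNA of human acute myeloid leukaemia cells was sequenced as paired ends in 11 libraries. The cells were OCI-AML3, an established leukaemia line, and OCI-AML3-FLT3-ITD (the FLT3-ITD line), which the labels name for an internal tandem duplication in the growth factor receptor gene FLT3. The groups were the FLT3-ITD line with 100 nM FHD-286 for 16 h (n = 2), the FLT3-ITD line as control (n = 3), OCI-AML3 with 100 nM FHD-286 for 16 h (n = 3) and OCI-AML3 as control (n = 3). FHD-286 is a small molecule that inhibits the chromatin remodelling ATPases BRG1 and BRM, motors of the BAF complex. All cells grew in RPMI medium with fetal bovine serum. The labels do not say whether controls received a vehicle, whether the FLT3-ITD line is 1 clone, how the duplication was introduced, or whether replicates came from separate cultures, so each p-value reflects the spread of these libraries alone, which may be technical.

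ATF4 is a transcription factor of the integrated stress response. When amino acids run short or proteins misfold, kinases phosphorylate the translation factor eIF2, general protein synthesis slows and translation of the ATF4 mRNA increases. ATF4 protein then binds composite C/EBP-ATF elements and raises genes for amino acid synthesis, uptake and tRNA charging, together with genes that end the response or lead to cell death. Much of its control is therefore translational, which RNA counts do not show.

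The composite element's core, TGATGNAA, was searched on both strands in RefSeq promoters (GRCh38.p14, 250 bases before to 50 bases after each start), where 31 of the 39 genes had an entry. It was present in 10 of these 31 genes, and in 4.46% of 27305 genes with a RefSeq promoter. The E-box CACGTG, a palindrome bound by MYC among other factors, was present in 6 of the 31 genes and in 8.77% of all genes. A gene counted if any of its promoters matched. Over promoters, the element's core was in 12 of 52 of the list and in 3.62% of all 35116. The E-box was in 9 of 52 and in 7.26%. The list was drawn up for the ATF4 pathway, so its share of the element is a description and not a test. No site of either motif overlapped a site of the other in these promoters (0 overlaps). The sites that begin before the RefSeq start in measured genes are printed below 5′ to 3′ on the strand of the gene, with the core in capitals, because these genes include those that moved in opposite directions in the comparisons that follow. They lie at chr1:212565205-212565234 (+, outside ATF3), chr2:64989381-64989410 (+, a noncoding part of an SLC1A4 exon), chr6:150866346-150866375 (+, a coding exon of MTHFD1L), chr7:97872458-97872487 (-, a noncoding part of an ASNS exon), chr14:75427995-75428024 (+, an intron of JDP2), chr15:40953251-40953280 (+, a noncoding part of a CHAC1 exon) and chr19:46784893-46784922 (-, a noncoding part of an SLC1A5 exon), by GENCODE 29. In SLC1A4 and CHAC1 the core is in the opposite orientation.
ATF3: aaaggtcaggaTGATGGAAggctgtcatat
SLC1A4: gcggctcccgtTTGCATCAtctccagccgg
MTHFD1L: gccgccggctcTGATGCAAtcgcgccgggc
ASNS: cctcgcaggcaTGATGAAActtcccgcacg
JDP2: atagccggggcTGATGCAAcccgtcccgcc
CHAC1: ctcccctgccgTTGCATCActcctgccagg
SLC1A5: gaggaagtggcTGATGCAAgctgtccaggg
A match is a description of the letters and not a measured binding site.

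The libraries held 58397190 to 79172389 counts, and 3 counts correspond to 0.0366 to 0.0548 normalised CPM (counts as a share of the scaled library size). The myeloid genes PTPRC (256 to 419 CPM), CD33 (31.1 to 62.0 CPM) and SPI1 (23.1 to 345 CPM) were present in every library, MPO was low (0.206 to 2.62 CPM), and HBB, CD3E and KRT19 had no counts. FLT3-ITD control replicate 2, so labelled, stood apart from its group. Its FLT3 level was 53.4 CPM, against 178 and 203 CPM in the other FLT3-ITD controls and 42.0 ± 1.16 CPM in OCI-AML3 controls (SD, n = 3). Its level of WLS, a carrier of Wnt proteins, was 0.0577 CPM, against 13.4 and 14.4 CPM in the other FLT3-ITD controls and 0.00599 ± 0.0104 CPM in OCI-AML3 controls (SD, n = 3). Over all genes, the correlation of its log2 CPM was 0.957 and 0.960 with FLT3-ITD control replicates 1 and 3, and 0.979 to 0.984 with OCI-AML3 controls. The share of counts on mitochondrial genes was 8.85% there and 4.48% to 7.54% elsewhere. Its WT1 level was 0.202 CPM, against 21.8 and 19.9 CPM in the other FLT3-ITD controls and 0.0578 ± 0.0128 CPM in OCI-AML3 controls (SD, n = 3). The correlation and these genes were chosen with the data known. Whether the label is right or the library is mixed was not tested. Counts of genes that rose or fell over the whole list are therefore given with all 11 libraries and without that library. Counts within a role are from all 11 libraries only. The common biological coefficient of variation, the spread between replicates relative to the mean, was 0.193 with all libraries and 0.0652 without it.

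For most of the 37 genes that passed the count filter in every group, the library labelled FLT3-ITD control replicate 2 lay between its own group and OCI-AML3. It was below both other FLT3-ITD controls for 34 of the 37, against 44.4% of all 18908 genes tested. It was above every OCI-AML3 control for 31 of the 37, against 40.4% of all genes. Both held for 28 of the 37, against 1734 of the 18908 genes. It was below every OCI-AML3 control for 4 of the 37, against 7454 of the 18908 genes. Its median level was 45.8% of the mean of the other FLT3-ITD controls, against 97.9% over all genes. The 3 genes in which it was above both were VLDLR, SHMT1 and CBS. The other FLT3-ITD controls were above every OCI-AML3 control for 33 of the 37 genes, against 30.1% of all genes. Any library closer to OCI-AML3 would be below them in most of the list. The shares of all genes are therefore not a like baseline, and these counts do not set the list apart. What sets this library apart was not tested.

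GOT1 (ENSG00000120053.10), the cytosolic aspartate aminotransferase, was listed at 0 in all 11 libraries, as were 3257 of 19726 protein-coding genes, and is not described further. NUPR1, a small stress-induced chromatin protein, passed the filter only through the FLT3-ITD controls. It had 7 counts in the treated FLT3-ITD libraries and 426 in FLT3-ITD controls, and 1 count in treated OCI-AML3 libraries and 12 in OCI-AML3 controls. It was left out of the counts below, which are over the other 37 genes.

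**Figure D1:**
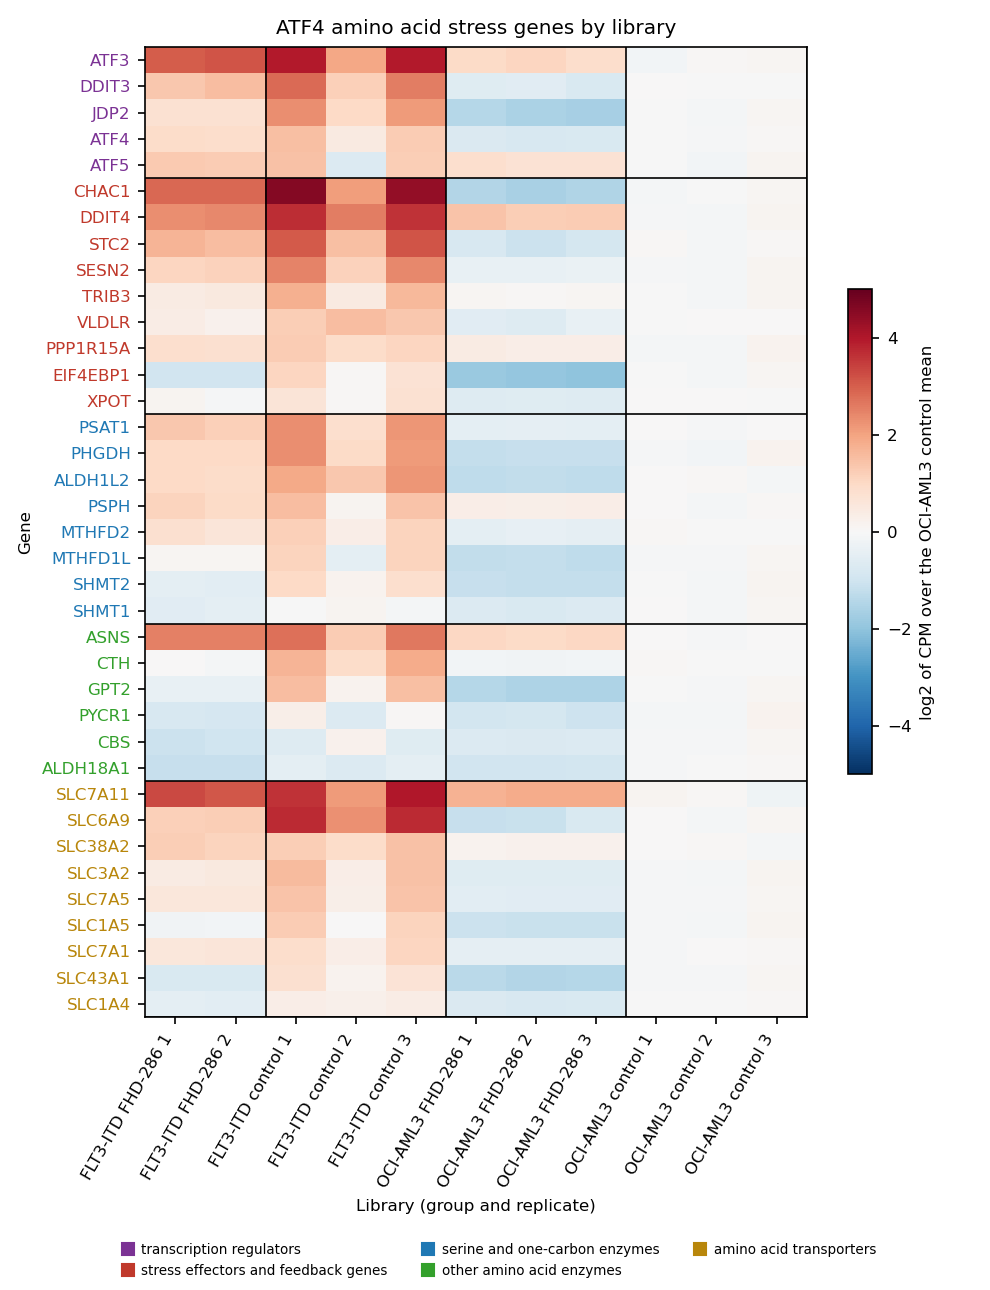
Level of the 37 genes (rows, grouped by role) in each of the 11 libraries (columns), as log2 of normalised CPM over the OCI-AML3 control mean; red is higher and blue lower. The FLT3-ITD control columns are mostly red, FLT3-ITD control replicate 2 is below both columns beside it for 34 genes, and DDIT4, SLC7A11 and ASNS are red in the treated OCI-AML3 columns where most genes are blue.

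Levels per kilobase are CPM divided by the annotated exon length of the gene, not by the length of a transcript. The order of genes below therefore depends on that annotation and does not show which transcripts dominate. In FLT3-ITD controls ATF4 averaged 332 ± 115 CPM per kilobase, the translation repressor gene EIF4EBP1 291 ± 97.3, the leucine transporter gene SLC7A5 278 ± 106 and the serine pathway gene PSAT1 245 ± 113 (SD, n = 3). ATF4 was the highest of the 37 in each of the 3 libraries (431, 205 and 360 CPM per kilobase in replicates 1, 2 and 3), while EIF4EBP1 (382, 188 and 304) was above SLC7A5 (339, 156 and 340) in replicates 1 and 2 and below it in replicate 3. PSAT1 (324, 116 and 295) was below these 3 genes in every replicate. In OCI-AML3 controls the order was EIF4EBP1 at 182 ± 13.7, ATF4 at 150 ± 4.29 and SLC7A5 at 126 ± 8.01 CPM per kilobase (SD, n = 3).

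In untreated cells the list was higher in the FLT3-ITD line than in OCI-AML3. Of the 37 genes, 31 were higher and 1, ALDH18A1, was lower, by edgeR's quasi-likelihood test at a Benjamini-Hochberg adjusted p of 0.05; over all genes tested, 14.5% were called higher and 13.5% lower. The median log2 fold change was 1.20, against 0.01 over all genes. In bulk RNA, fewer cells that express a gene and less of its RNA per cell cannot be told apart. Libraries did not overlap in 29 higher genes and 1 lower gene, against 17.1% and 19.8% of all genes. Without the library labelled FLT3-ITD control replicate 2, 33 genes were higher and 2 lower (24.1% and 25.4% of all genes), with a median of 1.43, and libraries did not overlap in 33 higher and 2 lower genes (30.1% and 31.6% of all genes).

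Among the transcription regulators, 4 of 5 were higher in untreated FLT3-ITD cells. ATF4 itself (ENSG00000128272.14, chr22:39519695-39522685, + strand, GRCh38) had 1082, 516 and 905 CPM in FLT3-ITD controls and 376, 367 and 389 CPM in OCI-AML3 controls. The groups did not overlap, and the library labelled replicate 2 was the lowest of the FLT3-ITD controls. The log2 fold change was 1.14 ± 0.20 (SE, adjusted p = 0.00329). ATF3, a stress-induced repressor of the same bZIP family, had 23.1, 5.61 and 22.8 CPM in FLT3-ITD controls and 1.33, 1.53 and 1.56 CPM in OCI-AML3 controls (log2 fold change 3.54 ± 0.44, adjusted p = 0.000698). DDIT3, which encodes the pro-apoptotic factor CHOP, differed by 2.36 ± 0.32 on the log2 scale and JDP2, a bZIP repressor, by 1.92 ± 0.26. DDIT3 shares 39.6% of its exon length with another gene, and the strand setting of the counting was not given. ATF5 missed the threshold (0.93 ± 0.39, adjusted p = 0.1), and its log2 fold change was 1.35 (adjusted p = 5.48e-12) without the library labelled FLT3-ITD control replicate 2, where ATF5 had 20.3 CPM.

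All 9 stress effectors and feedback genes were higher in untreated FLT3-ITD cells. CHAC1, which degrades glutathione, differed most of the 37 genes (ENSG00000128965.11, chr15:40952962-40956519, + strand, GRCh38). It had 194, 33.5 and 165 CPM in FLT3-ITD controls and 7.53, 7.92 and 8.46 CPM in OCI-AML3 controls, a log2 fold change of 4.04 ± 0.51 (adjusted p = 0.00074). Even the lowest FLT3-ITD control was above every OCI-AML3 control for CHAC1. DDIT4, an inhibitor of mTORC1 (ENSG00000168209.4, chr10:72273920-72276036, + strand, GRCh38), had 138, 63.2 and 130 CPM in FLT3-ITD controls and 10.3, 9.95 and 12.0 CPM in OCI-AML3 controls (3.36 ± 0.25, adjusted p = 7.7e-05). DDIT4 overlaps an antisense gene over 41.2% of its exon length. The other effectors were STC2, a secreted glycoprotein (2.74 ± 0.34), SESN2, a leucine sensor that restrains mTORC1 (2.12 ± 0.27), the pseudokinase gene TRIB3, which damps ATF4 (1.39 ± 0.26), the lipoprotein receptor gene VLDLR (1.38 ± 0.10), the eIF2 phosphatase subunit gene PPP1R15A (1.09 ± 0.10), EIF4EBP1 (0.68 ± 0.19) and the tRNA exporter gene XPOT (0.52 ± 0.15).

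Of the 8 serine and one-carbon enzymes, 6 were higher in untreated FLT3-ITD cells. PHGDH, the first enzyme of serine synthesis, had 419, 162 and 367 CPM in FLT3-ITD controls and 79.2, 75.7 and 94.8 CPM in OCI-AML3 controls (log2 fold change 1.93 ± 0.27, adjusted p = 0.00118). The next enzymes of the pathway, PSAT1 and PSPH, differed by 1.93 ± 0.29 and 1.15 ± 0.27, so that all 3 steps from glycolysis to serine were higher. The mitochondrial folate enzyme genes ALDH1L2 (1.87 ± 0.17), MTHFD2 (0.93 ± 0.18) and SHMT2 (0.71 ± 0.16) were higher as well; 33.2% of MTHFD2's exon length overlaps other genes. MTHFD1L, which makes formate in mitochondria, missed the threshold (0.75 ± 0.31, adjusted p = 0.096) and had an adjusted p of 5.24e-12 without the library labelled FLT3-ITD control replicate 2. The cytosolic SHMT1 averaged 53.1 ± 4.60 CPM in FLT3-ITD controls and 52.6 ± 3.63 CPM in OCI-AML3 controls (SD, n = 3 each), and these overlapped (0.01 ± 0.08).

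The 6 other amino acid enzymes were divided. The asparagine synthetase gene ASNS (ENSG00000070669.16, chr7:97852118-97872542, - strand, GRCh38) had 357, 127 and 331 CPM in FLT3-ITD controls and 54.2, 50.7 and 54.0 CPM in OCI-AML3 controls (2.36 ± 0.30, adjusted p = 0.000741); 44.6% of its exon length overlaps another gene. CTH, which makes cysteine from cystathionine (1.55 ± 0.20), and the mitochondrial alanine aminotransferase gene GPT2 (1.20 ± 0.27) were higher too. ALDH18A1, the first enzyme of proline synthesis from glutamate, was the exception, with 142, 122 and 143 CPM in FLT3-ITD controls against 193, 196 and 207 CPM in OCI-AML3 controls (-0.55 ± 0.07, adjusted p = 0.000746). PYCR1, the last step to proline, gave -0.06 ± 0.19 (adjusted p = 0.842). CBS, which makes cystathionine, gave -0.28 ± 0.20 (adjusted p = 0.306), and -0.63 (adjusted p = 4.21e-07) without the library labelled FLT3-ITD control replicate 2, whose CBS level of 46.6 CPM exceeded the 25.6 and 25.8 CPM of the other FLT3-ITD controls.

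All 9 amino acid transporters were higher in untreated FLT3-ITD cells. SLC7A11, the cystine importer (ENSG00000151012.13, chr4:138164097-138242349, - strand, GRCh38), had 129, 45.6 and 167 CPM in FLT3-ITD controls and 11.5, 10.9 and 9.07 CPM in OCI-AML3 controls (3.44 ± 0.38, adjusted p = 0.000377). SLC6A9, a glycine transporter gene, had 36.9, 13.5 and 36.8 CPM in FLT3-ITD controls and 2.80, 2.59 and 2.95 CPM in OCI-AML3 controls (3.39 ± 0.33, adjusted p = 0.000233). In both genes every FLT3-ITD control was above every OCI-AML3 control. The neutral amino acid transporter SLC38A2 (1.23 ± 0.12), both subunits of the leucine exchanger, SLC3A2 (1.22 ± 0.24) and SLC7A5 (1.15 ± 0.23), the glutamine transporter SLC1A5 (0.90 ± 0.24), the arginine transporter SLC7A1 (0.81 ± 0.15), SLC43A1 (0.58 ± 0.14) and SLC1A4 (0.32 ± 0.06) differed less. SLC1A5 shares 23.8% of its exon length with another gene.

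**Figure D2:**
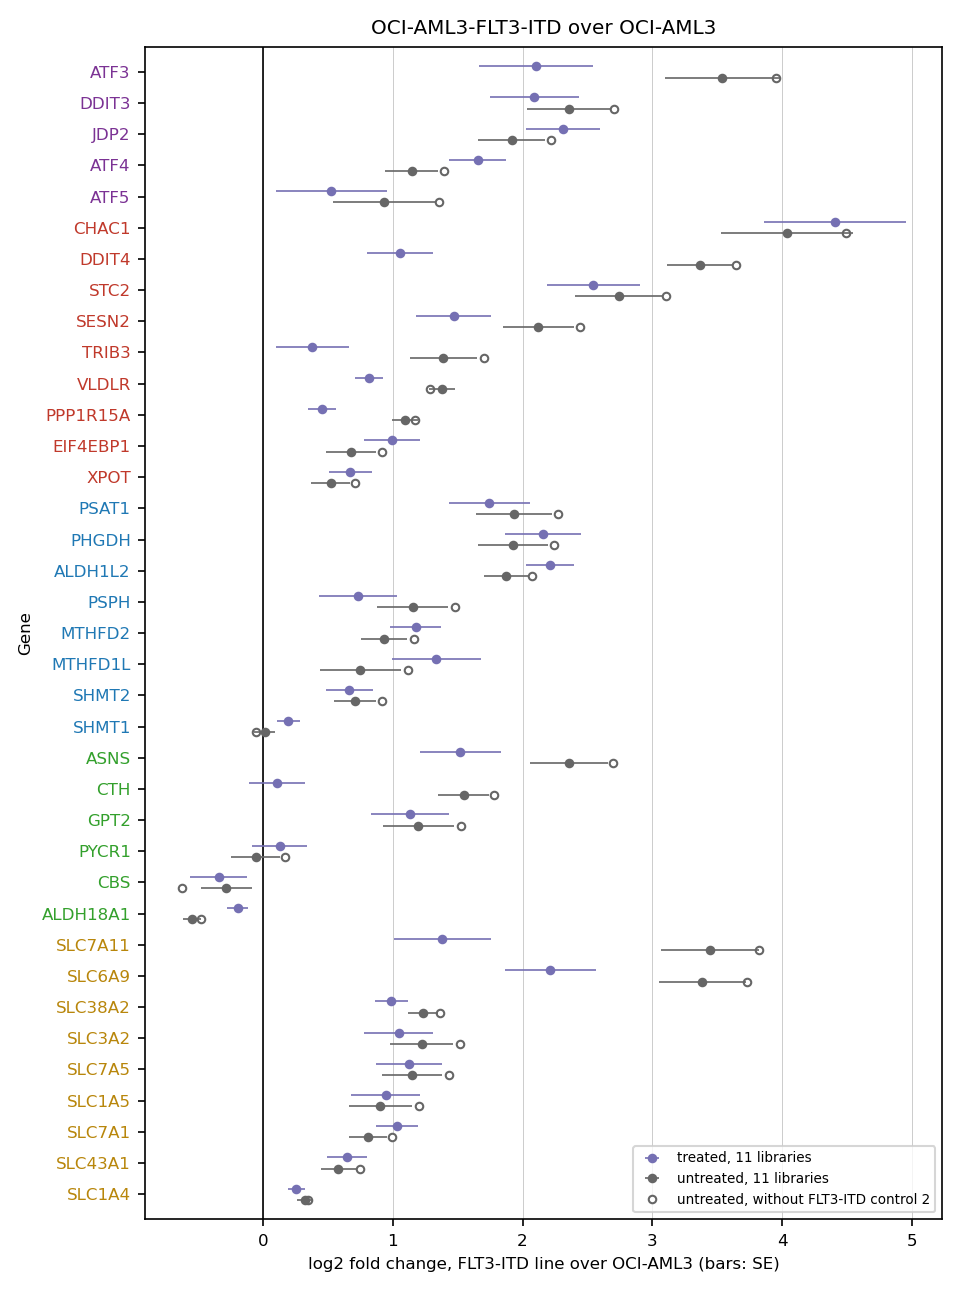
Log2 fold change of the FLT3-ITD line over OCI-AML3 for the 37 genes, in treated cells (purple) and untreated cells (grey), with bars for the SE; open grey circles are the untreated comparison without the library labelled FLT3-ITD control replicate 2, and gene names are coloured by role. CHAC1 lies farthest right at 4.41 in treated and 4.04 in untreated cells, and ALDH18A1 lies left of 0 in both.

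With FHD-286 in both lines, the list was still higher in the FLT3-ITD line. Of the 37 genes, 29 were higher and 0 lower by edgeR, while 14.3% of all genes were higher and 11.7% lower. At an unadjusted p under 0.05, 1 gene was lower, and DESeq2 called 0 lower. The median log2 fold change was 1.04. It was 1.07 or 1.02 without treated FLT3-ITD replicate 1 or 2. Either fit leaves 1 library in that group, and fewer genes passed, in the list and over all genes. Libraries of the lines did not overlap in any of the 37 genes, 35 higher and 2 lower, against 33.3% and 32.9% of all genes. CHAC1 had 58.4 and 58.9 CPM in treated FLT3-ITD cells and 2.85, 2.61 and 2.83 CPM in treated OCI-AML3 cells (4.41 ± 0.55, adjusted p = 0.000428). STC2 (2.55 ± 0.36), JDP2 (2.31 ± 0.28), ALDH1L2 (2.21 ± 0.18) and SLC6A9 (2.21 ± 0.35) followed. ATF4 had 710 and 697 CPM in treated FLT3-ITD cells and 230, 217 and 224 CPM in treated OCI-AML3 cells (1.65 ± 0.22, adjusted p = 0.000671). CTH, with 6.70 and 6.19 CPM in treated FLT3-ITD cells and 6.08, 5.84 and 6.01 CPM in treated OCI-AML3 cells, gave 0.11 ± 0.22 (adjusted p = 0.765). The library labelled FLT3-ITD control replicate 2 is in neither group compared here but enters the filter, the scaling and the shared spread. Without it, 33 genes were higher and ALDH18A1 and CBS were lower (24.2% and 22.8% of all genes).

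In OCI-AML3, FHD-286 lowered most of the list and raised a few genes of it. Of the 37 genes, 21 fell and 4 rose, against 21.5% and 19.8% of all genes tested, and 12 did not pass the test. Leaving out OCI-AML3 control replicate 2 left 2 genes that rose, against 3054 of all 18845 genes tested in that fit. The median log2 fold change was -0.65, against 0.01 over all genes. Treated and control libraries did not overlap in 28 lower and 8 higher genes, against 33.2% and 32.8% of all genes, and only TRIB3 overlapped. Without the library labelled FLT3-ITD control replicate 2 (again in neither group compared), 27 fell and 8 rose (29.8% and 29% of all genes).

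The 4 genes that rose in OCI-AML3 were SLC7A11, DDIT4, ASNS and PPP1R15A. SLC7A11 had 35.4, 38.0 and 37.8 CPM with FHD-286 and 11.5, 10.9 and 9.07 CPM in controls, a log2 fold change of 1.82 ± 0.36 (adjusted p = 0.00215). DDIT4 had 28.9, 25.4 and 26.0 CPM with FHD-286 and 10.3, 9.95 and 12.0 CPM in controls (1.32 ± 0.24, adjusted p = 0.00123). ASNS had 107, 102 and 110 CPM with FHD-286 and 54.2, 50.7 and 54.0 CPM in controls (1.00 ± 0.29, adjusted p = 0.0169). PPP1R15A (ENSG00000087074.7, chr19:48872392-48876057, + strand, GRCh38) had 39.2, 36.7 and 36.8 CPM with FHD-286 and 27.5, 27.2 and 32.8 CPM in controls (0.37 ± 0.10, adjusted p = 0.0132). In all 4 genes every treated library was above every control. ATF3 (0.98 ± 0.42, adjusted p = 0.0858), ATF5 (0.77 ± 0.39, adjusted p = 0.143), PSPH (0.31 ± 0.27) and SLC38A2 (0.20 ± 0.12) did not pass the threshold with all libraries. They passed it without the library labelled FLT3-ITD control replicate 2, and also when only the groups compared were fitted; ATF3, ATF5 and SLC38A2 passed in some other alternatives too. The overlap with other genes covers 23.7% of ATF5's exon length.

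Falls in OCI-AML3 included every role. ATF4 had 230, 217 and 224 CPM with FHD-286 and 376, 367 and 389 CPM in controls (-0.76 ± 0.20, adjusted p = 0.012), and JDP2 fell by 1.55 ± 0.26 on the log2 scale. EIF4EBP1, whose product represses cap-dependent translation, fell most, to 53.2, 50.9 and 48.2 CPM with FHD-286, against 194, 181 and 210 CPM in controls (-1.94 ± 0.20, adjusted p = 3.23e-05). The other effectors that fell were CHAC1 (-1.53 ± 0.49), STC2 (-0.92 ± 0.33), XPOT (-0.63 ± 0.15) and VLDLR (-0.53 ± 0.10). Of the serine and one-carbon enzymes, 5 of 8 fell, namely ALDH1L2 (-1.25 ± 0.17), MTHFD1L (-1.23 ± 0.31), SHMT2 (-1.18 ± 0.16), PHGDH (-1.16 ± 0.27) and SHMT1 (-0.72 ± 0.08). Of the other enzymes, GPT2 (-1.50 ± 0.28), PYCR1 (-0.95 ± 0.19), ALDH18A1 (-0.94 ± 0.07) and CBS (-0.70 ± 0.20) fell; 29.7% of PYCR1's exon length overlaps other genes. Of the transporters, SLC43A1 (-1.41 ± 0.14), SLC1A5 (-1.10 ± 0.25), SLC1A4 (-0.76 ± 0.06) and SLC7A1 (-0.45 ± 0.15) fell, and SLC6A9 fell by 1.00 ± 0.33 on the log2 scale. The genes with a negative value that did not pass the test were DDIT3 (-0.65 ± 0.32), SLC3A2 (-0.60 ± 0.24), SLC7A5 (-0.55 ± 0.23), PSAT1 (-0.47 ± 0.28), MTHFD2 (-0.46 ± 0.18), SESN2 (-0.36 ± 0.26) and CTH (-0.15 ± 0.20); TRIB3 gave 0.08 ± 0.25.

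**Figure D3:**
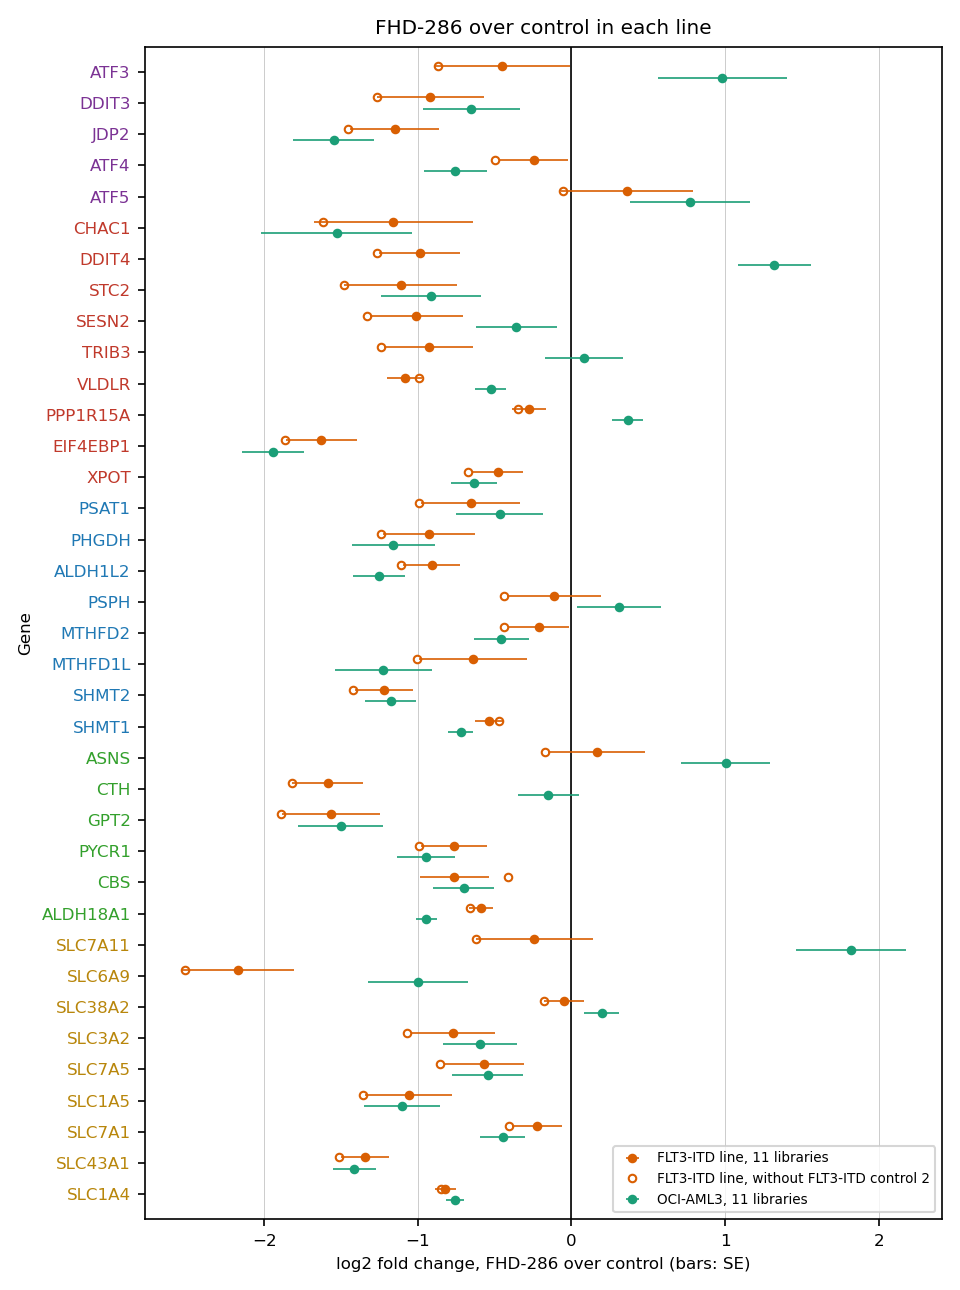
Log2 fold change of FHD-286 over control for the 37 genes in the FLT3-ITD line (orange) and OCI-AML3 (green), with bars for the SE; open orange circles are the FLT3-ITD line without the library labelled FLT3-ITD control replicate 2, and gene names are coloured by role. Green points of SLC7A11 (1.82), DDIT4 (1.32) and ASNS (1.00) lie right of 0, and the open orange circles lie left of 0 for all 37 genes.

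In the FLT3-ITD line, FHD-286 lowered 20 of the 37 genes and raised 0, against 14.9% and 15.6% of all genes tested; 0 also rose at an unadjusted p under 0.05 by edgeR and by DESeq2. The median log2 fold change was -0.77, against -0.02 over all genes. It was -0.77 or -0.80 without treated FLT3-ITD replicate 1 or 2. Either fit leaves 1 library in the treated group, and fewer genes fell past the threshold, in the list and over all genes. With the library labelled FLT3-ITD control replicate 2 left out, 35 fell and 0 rose (24.2% and 24.8% of all genes), with a median of -0.99. Treated libraries lay below all controls in 17 of the 37 genes with all libraries (22.9% of all genes), above all controls in 0 (26.1% of all genes; 36.2% with that library left out), and below them in 36 without that library (33.9% of all genes). The library was below both treated FLT3-ITD libraries for 17 of the 37 genes, 45.9%, against 8502 of the 18908 genes tested, a share near it.

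SLC6A9 fell most in the FLT3-ITD line, with 6.41 and 6.48 CPM with FHD-286 and 36.9, 13.5 and 36.8 CPM in controls (-2.17 ± 0.37, adjusted p = 0.0014). EIF4EBP1 had 101 and 101 CPM with FHD-286 and 409, 202 and 326 CPM in controls (-1.63 ± 0.23, adjusted p = 0.000458). CTH (ENSG00000116761.11, chr1:70411218-70439851, + strand, GRCh38) had 6.70 and 6.19 CPM with FHD-286 and 21.6, 12.6 and 24.0 CPM in controls (-1.59 ± 0.23, adjusted p = 0.000532). In these 3 genes the treated libraries were below every control, the library labelled replicate 2 included. GPT2 (-1.56 ± 0.32), SLC43A1 (-1.34 ± 0.16), SHMT2 (-1.22 ± 0.19), JDP2 (-1.15 ± 0.29), STC2 (-1.11 ± 0.37), VLDLR (-1.09 ± 0.11), SLC1A5 (-1.06 ± 0.28) and SESN2 (-1.01 ± 0.30) fell by more than 1 on the log2 scale as well. DDIT4, PHGDH, TRIB3, ALDH1L2, SLC1A4, PYCR1, CBS, ALDH18A1 and SHMT1 fell by between 0.54 (SHMT1) and 0.99 (DDIT4) on the log2 scale.

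ATF4 in the FLT3-ITD line had 710 and 697 CPM with FHD-286 and 1082, 516 and 905 CPM in controls. The treated values lay between the library labelled replicate 2 and the other controls, and the log2 fold change was -0.25 ± 0.23 (adjusted p = 0.448). It was -0.50 without that library (adjusted p = 2.45e-05). CHAC1 had 58.4 and 58.9 CPM with FHD-286 and 194, 33.5 and 165 CPM in controls, a log2 fold change of -1.16 ± 0.52 (adjusted p = 0.116), and -1.61 (adjusted p = 1.32e-12) without that library. ASNS had 304 and 305 CPM with FHD-286 and 357, 127 and 331 CPM in controls (0.17 ± 0.32, adjusted p = 0.735); its sign turned without that library (-0.18, adjusted p = 0.0417). The other genes that did not pass the test with all libraries ran from -0.92 (DDIT3) to 0.36 (ATF5), and of these only ATF5 and SLC38A2 did not pass without that library.

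Of the genes that fell in either line, 16 fell in both, 80% of the 20 in the FLT3-ITD line and 76.2% of the 21 in OCI-AML3. Over all genes, 2080 fell in both, 74% of those in the FLT3-ITD line and 51.1% of those in OCI-AML3. With the library labelled FLT3-ITD control replicate 2 left out, 27 members fell in both, 77.1% of the 35 in the FLT3-ITD line and 100% of the 27 in OCI-AML3, and 3592 of all genes (79.5% and 64.6%). The 16 were ALDH18A1, ALDH1L2, CBS, EIF4EBP1, GPT2, JDP2, PHGDH, PYCR1, SHMT1, SHMT2, SLC1A4, SLC1A5, SLC43A1, SLC6A9, STC2 and VLDLR. The treated FLT3-ITD libraries were above every OCI-AML3 control for 25 of the 37 genes (38.1% of all genes). They were below every OCI-AML3 control for 10 (36.4% of all genes), namely EIF4EBP1, SHMT1, SHMT2, ALDH18A1, PYCR1, CBS, GPT2, SLC1A5, SLC1A4 and SLC43A1, and overlapped for the other 2.

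The effect of FHD-286 differed between the lines in 3 of the 37 genes, all lower in the FLT3-ITD line, against 1.38% of all genes called lower and 1.98% called higher in this difference. DDIT4 fell to 54.4 and 57.1 CPM in treated FLT3-ITD cells, against 138, 63.2 and 130 CPM in their controls (-0.99 ± 0.26, adjusted p = 0.0164), and rose in OCI-AML3. The difference between these effects was -2.31 ± 0.36 on the log2 scale (adjusted p = 0.00889). CTH gave a difference of -1.44 ± 0.30 (adjusted p = 0.0287), with -1.59 in the FLT3-ITD line and -0.15 in OCI-AML3. PPP1R15A had 52.6 and 50.4 CPM in treated FLT3-ITD cells and 69.7, 55.5 and 61.8 CPM in their controls (-0.27 ± 0.11, adjusted p = 0.0863), and its difference was -0.64 ± 0.15 (adjusted p = 0.0454). Without the library labelled FLT3-ITD control replicate 2, 19 genes were lower and 1, ALDH18A1, was higher in the difference, against 7.39% and 9.63% of all genes. With either treated FLT3-ITD library left out, which leaves 1 in that group, DDIT4, CTH and PPP1R15A did not pass in the difference. Fewer of all genes were called lower in these fits as well.

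DDIT4 was the only gene of the list called higher in OCI-AML3 and lower in the FLT3-ITD line, as were 38 of all genes, 1.35% of those lower in the FLT3-ITD line and 1.02% of those higher in OCI-AML3. There were 6 without the library labelled FLT3-ITD control replicate 2, ASNS, ATF3, DDIT4, PPP1R15A, PSPH and SLC7A11, and 149 over all genes. SLC7A11, with 102 and 90.9 CPM in treated FLT3-ITD cells and 129, 45.6 and 167 CPM in their controls, gave a difference between lines of -2.06 ± 0.53 (adjusted p = 0.0643), and -2.44 (adjusted p = 6.32e-10) without that library. All these comparisons share control libraries, and each is given by its own values.

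**Figure D4:**
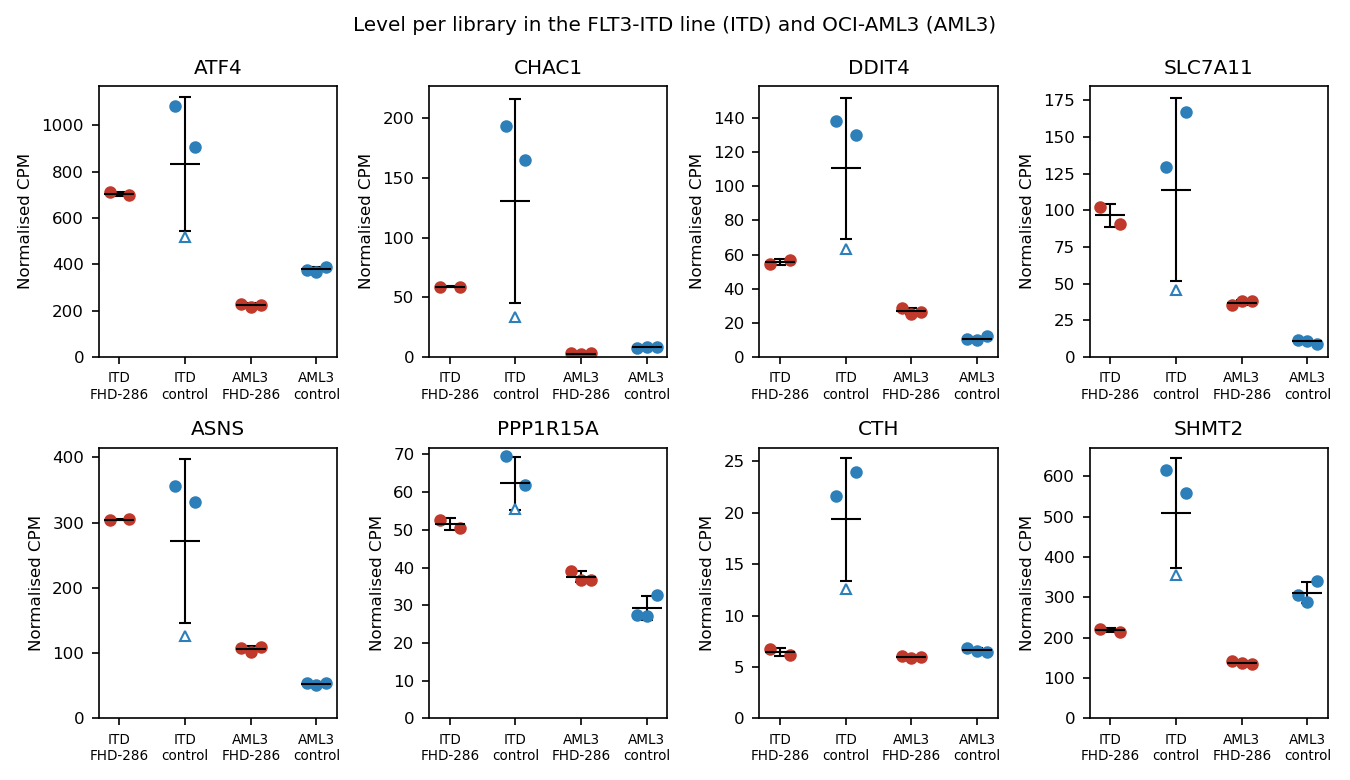
Normalised CPM per library of 8 genes in treated (red) and control (blue) libraries of the FLT3-ITD line (ITD) and OCI-AML3 (AML3); bars are the mean ± SD, the axes start at 0, and the open triangle is the library labelled FLT3-ITD control replicate 2. For DDIT4 the treated FLT3-ITD libraries (54.4 and 57.1 CPM) are below their controls and the treated OCI-AML3 libraries (25.4 to 28.9 CPM) are above theirs (9.95 to 12.0 CPM).

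The counts of the other lists stand beside the same shares of all genes: 15.6% rose and 14.9% fell in the FLT3-ITD line, and 19.8% rose and 21.5% fell in OCI-AML3. With the library labelled FLT3-ITD control replicate 2 left out these were 24.8%, 24.2%, 29% and 29.8%. Of 14 genes of eIF2 kinases and other inputs to the stress response, 3 rose and 2 fell in the FLT3-ITD line, counts near those shares, and 3 rose and 7 fell in OCI-AML3. Without that library 3 rose and 5 fell in the FLT3-ITD line and 3 rose and 7 fell in OCI-AML3. OMA1, the mitochondrial protease that signals mitochondrial stress to this pathway, averaged 23.5 ± 2.95 CPM (SD, n = 2) with FHD-286 and 10.7 ± 1.08 CPM in controls (n = 3) of the FLT3-ITD line, and 24.9 ± 0.399 and 11.3 ± 0.604 CPM in OCI-AML3 (n = 3 each). Its log2 fold change was 1.14 in both lines. EIF2AK2, the double-stranded RNA-activated eIF2 kinase, rose by 0.85 and EIF2B3, a subunit of the eIF2 exchange factor, fell by 0.52 on the log2 scale in the FLT3-ITD line, and they gave 0.80 and -0.91 in OCI-AML3.

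Of 7 dimer partners and co-regulators of ATF4, 1 rose and 2 fell in the FLT3-ITD line, and 2 rose and 3 fell in OCI-AML3. With the library labelled FLT3-ITD control replicate 2 left out 6 were tested, of which 1 rose and 4 fell in the FLT3-ITD line and 3 rose and 2 fell in OCI-AML3. Counts this small can be read only gene by gene. CEBPB, a dimer partner of ATF4, averaged 49.8 ± 14.3 CPM with FHD-286 (SD, n = 2) and 76.1 ± 20.8 CPM in controls (n = 3) of the FLT3-ITD line (-0.61 ± 0.22, adjusted p = 0.0568). In OCI-AML3 it averaged 97.6 ± 1.63 and 27.1 ± 1.63 CPM (n = 3 each; 1.85 ± 0.20, adjusted p = 4.24e-05). The difference between the lines was -2.46 ± 0.30 (adjusted p = 0.00273). Without that library CEBPB passed the test in the FLT3-ITD line (-0.82, adjusted p = 8.51e-06). CEBPA, a myeloid differentiation factor, fell in both lines (-1.75 ± 0.19 in the FLT3-ITD line and -0.50 ± 0.16 in OCI-AML3; difference -1.25 ± 0.24, adjusted p = 0.0218). CEBPA overlaps antisense genes over 43.4% of its exon length. MYC fell by 1.82 ± 0.11 in the FLT3-ITD line and by 1.87 ± 0.10 in OCI-AML3 on the log2 scale. NFE2L2, the oxidative stress factor that also acts on SLC7A11, rose in the FLT3-ITD line (0.91 ± 0.26). It gave 0.62 ± 0.23 (adjusted p = 0.0534) in OCI-AML3, where it passed without that library (0.62, adjusted p = 1.53e-08). The overlap with other genes covers 20.9% of NFE2L2's exon length.

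Of 17 genes of the unfolded protein response of the endoplasmic reticulum, 1 rose and 1 fell in the FLT3-ITD line, and 4 rose and 9 fell in OCI-AML3. In the fit of the other 10 libraries, 2 rose and 10 fell in the FLT3-ITD line and 5 rose and 10 fell in OCI-AML3. HERPUD1, which serves protein degradation at this membrane, fell in both (-0.90 ± 0.11 in the FLT3-ITD line and -0.73 ± 0.10 in OCI-AML3), while XBP1, a transcription factor of this response, gave 0.16 ± 0.14 (adjusted p = 0.423) in the FLT3-ITD line and 1.13 ± 0.13 (adjusted p = 6.28e-05) in OCI-AML3 (difference -0.97 ± 0.19, adjusted p = 0.0253). Of 13 tested folate and glycine cleavage genes of 15 listed, 2 rose and 7 fell in the FLT3-ITD line, and 1 rose and 9 fell in OCI-AML3; with the 10 libraries 3 rose and 7 fell, and 3 rose and 10 fell. The folate carrier gene SLC19A1 fell by 0.95 ± 0.10 in the FLT3-ITD line and by 1.25 ± 0.09 in OCI-AML3 on the log2 scale. The folate enzyme gene MTHFD1 fell by 0.41 ± 0.10 in the FLT3-ITD line and by 0.90 ± 0.09 in OCI-AML3.

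Of 18 amino acid sensing and mTORC1 genes, 6 rose and 4 fell in the FLT3-ITD line, and 6 rose and 7 fell in OCI-AML3. With the library labelled FLT3-ITD control replicate 2 left out, 8 rose and 6 fell in the FLT3-ITD line and 7 rose and 10 fell in OCI-AML3. SESN1, a paralogue of SESN2, rose by 0.61 ± 0.08 in the FLT3-ITD line and 0.72 ± 0.07 in OCI-AML3, and the small GTPase gene RRAGD fell (-0.83 ± 0.15 in the FLT3-ITD line and -1.41 ± 0.14 in OCI-AML3). Of 17 further amino acid transporters, 4 rose and 4 fell in the FLT3-ITD line, and 3 rose and 5 fell in OCI-AML3, counts near the shares of all genes. Without that library 4 rose and 5 fell, and 3 rose and 10 fell. SLC38A5, a glutamine and glycine transporter gene, fell by 1.80 ± 0.15 in the FLT3-ITD line and 2.75 ± 0.14 in OCI-AML3 on the log2 scale, and the lysosomal transporter gene SLC36A1 rose (0.54 ± 0.10 in the FLT3-ITD line and 1.00 ± 0.09 in OCI-AML3). Of 20 cytosolic aminoacyl-tRNA synthetases, which charge tRNAs with amino acids, 0 rose and 6 fell in the FLT3-ITD line, and 0 rose and 13 fell in OCI-AML3, by edgeR; 0 rose in either line at an unadjusted p under 0.05 or by DESeq2. In the FLT3-ITD line FARSB (-0.62 ± 0.10) and KARS1 (-0.48 ± 0.10) fell, and in OCI-AML3 they gave -0.87 ± 0.09 and -0.76 ± 0.09. In the fit that left out that library, 18 synthetases fell in the FLT3-ITD line and 17 in OCI-AML3. In untreated cells 10 of the 20 synthetases were higher and 4 lower in the FLT3-ITD line than in OCI-AML3, against 14.5% and 13.5% of all genes. In the fit without that library 12 were higher and 4 lower, against 24.1% and 25.4% of all genes.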

How the data were processed

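The authors deposited 1 table of raw counts per gene, as whole numbers that were not normalised, for 11 libraries. The submitters' processing notes name STAR and the build hg38. How reads were assigned to genes, with which annotation and whether by strand, is not given in the sources used here, and reads of overlapping genes cannot be separated. Coordinates, exon lengths and exon overlaps are from GENCODE 29 on GRCh38, promoters from RefSeq on GRCh38.p14.

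From these counts, genes were kept by filterByExpr (minimum count 10, minimum total 15; 18908 genes), scaled by TMM and fitted with edgeR 4.0.16 (limma 3.58.1, R 4.3.3) by a quasi-likelihood model of all 11 libraries with 1 mean per group and 7 residual degrees of freedom. Tests were two-sided with Benjamini-Hochberg adjustment over all genes tested and a threshold of 0.05. Log2 fold changes are from that model; SE is their size divided by the square root of F. Alternatives were other scalings and filters, DESeq2 1.42.0, fits of only the groups compared, a replicate block and leaving out each library. On simulated counts with 200 changed genes, 78% of 2-fold changes in OCI-AML3, 72% in the FLT3-ITD line and 42% in the difference between lines were recovered. The changed genes were drawn from those with an average level above 1 CPM. Each gene had the same spread in every group, and no simulated library stood apart. These settings differ from the data, so the percentages are not the power of the tests above.

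The genes, lists and tests were chosen with earlier results of these data known. The genes named are every member and, in each other list, the 3 with the smallest p in either line and 1 called gene of the minority direction; not every gene the rule allows is reported here.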

Additional observations from a re-analysis of the deposited data

Results flagged for a closer look

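The effect of FHD-286 differed between the lines by the interaction test of edgeR's quasi-likelihood model in 3 genes of the list and 3 others named in the report. DDIT4 had a difference (FLT3-ITD line minus OCI-AML3) of -2.31 on the log2 scale, with an effect below 0 in the FLT3-ITD line and above 0 in OCI-AML3. It kept its side of the threshold in 16 of 18 alternatives and lost it without treated FLT3-ITD replicate 1 or 2. CTH had a difference of -1.44 and PPP1R15A of -0.64. Each lost the threshold in 9 of 18 alternatives, with adjusted p up to 0.138 for CTH and 0.181 for PPP1R15A, and both kept their sign. CEBPB had a difference of -2.46 and stayed past the threshold in all 18 alternatives. CEBPA had a difference of -1.25, lost in 6 of 18 alternatives. XBP1 had a difference of -0.97, lost in 9 of 18 alternatives. The alternatives in which these calls were lost were leave-one-out fits and, for CTH, PPP1R15A and XBP1, the replicate block.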

How the results depend on the processing

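The groups hold 2 or 3 libraries, which limits every test, and no limit from depth was tested. Scaling by library totals moved the median log2 fold change of all genes to 0.17 for OCI-AML3 and 0.11 between untreated lines, and the upper quartile moved the difference between lines to -0.11. These scalings shifted the split of all calls. With library totals 5161 genes rose and 3025 fell in OCI-AML3 (3742 and 4074 with TMM), 4032 rose and 2254 fell in the FLT3-ITD line (2957 and 2810), and 3457 were higher and 1648 lower between untreated lines (2738 and 2551). With the upper quartile 308 were higher and 374 lower in the difference (375 and 260), and 3282 higher and 1957 lower between untreated lines. Of the 10 counts of members called, these moved by more than 1.5 times. Genes that rose in OCI-AML3 numbered 8 when only the groups compared were fitted, and genes that fell in the FLT3-ITD line 8. Genes lower in the difference numbered 5 without a filter, 5 with DESeq2's Wald test and 1 with the replicate block. Genes lower in treated FLT3-ITD cells numbered 1 with the upper quartile and 2 when only the groups compared were fitted. The cause was not tested.

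Where a library left out leaves 1 in its group, the lone library is assumed to vary like the other groups. In those fits fewer of all genes passed the threshold. Leaving out each library in turn, genes that rose in OCI-AML3 numbered 2 to 8 and genes that fell 16 to 27. In the FLT3-ITD line they numbered 0 to 0 and 10 to 35, and in the difference 0 to 1 and 0 to 19. Genes higher in the FLT3-ITD line numbered 28 to 33 untreated and 16 to 33 treated, and lower ones 1 to 2 and 0 to 2.

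Replicate numbers gave no sign of pairing: the 15 same-numbered pairs correlated at -0.03 to 0.12 in their deviations from group means. Differently numbered pairs ran from -0.20 to 0.19. Deviations within such small groups offset each other, so this check cannot exclude pairing. With the replicate block, 16 genes fell in the FLT3-ITD line, and 21 fell and 4 rose in OCI-AML3.

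Signs turned in 46 values; of these, ASNS in the FLT3-ITD line without FLT3-ITD control replicate 2 passed the threshold (adjusted p = 0.0417). With library totals, CTH gave 0.0046 for the FHD-286 effect in OCI-AML3, SLC38A2 0.0567 in the FLT3-ITD line, SLC1A5 -0.0048 in the difference between lines and PYCR1 0.0352 between untreated lines. With the replicate block, PSPH gave 0.0159 in the FLT3-ITD line, and in the difference STC2 gave 0.008, SHMT2 0.0157, GPT2 0.0749 and SLC7A5 0.0905. In the difference, SLC1A5 gave -0.0411 and SLC43A1 -0.02 with the upper quartile, and SLC1A5 -0.0055 without a filter. Leaving out each library in turn, the effect in the FLT3-ITD line ran from -0.0568 to 0.71 for ATF5, -0.4413 to 0.1282 for PSPH, -0.1755 to 0.4074 for ASNS, -0.6205 to 0.1411 for SLC7A11 and -0.1782 to 0.0852 for SLC38A2. The difference between lines ran from -0.6138 to 0.0398 for DDIT3, -0.0866 to 0.7614 for CHAC1, -0.5644 to 0.0446 for STC2, -0.039 to 0.2907 for XPOT, -0.0828 to 0.4847 for PHGDH, -0.5281 to 0.0595 for PSAT1, -0.2489 to 0.1076 for SHMT2, -0.0436 to 0.3836 for PYCR1, -0.2121 to 0.2859 for CBS, -0.3907 to 0.1437 for GPT2, -0.3087 to 0.1478 for SLC7A5, -0.4741 to 0.0382 for SLC3A2, -0.2583 to 0.2683 for SLC1A5 and -0.1025 to 0.1858 for SLC43A1. Between untreated lines it ran from -0.0549 to 0.0724 for SHMT1 and -0.2553 to 0.171 for PYCR1.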
